A study of Mus musculus with 24 samples.

Results

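WT-only TFAP2A sites are the peaks of the transcription factor TFAP2A that were called in a Kmt2d wild-type mouse melanoma line (971, WT) and that share not 1 base with any TFAP2A peak of a Kmt2d mutant line (493, mutant). They were thus chosen by the presence and absence of TFAP2A peaks themselves. They number 2038 of the 11636 WT TFAP2A peaks, or 17.5% (Wilson 95% interval 16.8% to 18.2%), against 18530 TFAP2A peaks in the mutant line. The other 9598 WT peaks are called shared sites. The number rests on the lists' thresholds: it was 1352 with WT peaks of −log10 q of at least 5 and 3611 when the mutant list was cut to as many peaks as the WT list. The series mapped chromatin proteins and the mark H3K4me3 by CUT&RUN, where a nuclease held by an antibody cuts out the DNA around the antibody's target, and its stated interest is the role of KMT2D in melanoma. Of 24 samples, 22 had a peak list, 10 from the WT line and 12 from the mutant line, with 197727 peaks in all, and the other 2 were IgG controls that were not analysed here. Both lines grew in the same serum-containing medium, and the labels do not give the Kmt2d allele, the driver mutations or the origin of either line. Each line and target had 1 library and each genotype 1 line, so no test between genotypes was possible, and the Kmt2d genotype and other differences between the lines cannot be told apart. Intervals below cover counting error over sites only. A peak absent from a list was not called there, which does not show that the protein was absent.

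TFAP2A is an AP-2 factor that binds a GC-rich palindrome and directs neural crest, melanocyte and skin development. TFAP2B is a close paralogue that recognises the same motif. KMT2D is a histone H3 lysine 4 methyltransferase of enhancers that works in a complex with the H3K27 demethylase UTX. Menin is a subunit of the related KMT2A and KMT2B complexes at promoters, which carry H3K4me3. ARID1A and SMARCC1 are subunits of SWI/SNF nucleosome remodellers, ARID1A of the BAF form and SMARCC1 of all forms, while ARID2 and PBRM1 belong to the PBAF form and BRD9 to the non-canonical form. SOX10 is a lineage factor of neural crest and pigment cells.

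Promoters with a WT-only site were the members whose sequence could be read, because RefSeq gives 250 bases before and 50 bases after each transcript start (GRCm38.p6). The AP-2 motif was searched as GCCNNNGGC, which reads the same on both strands. It stood in 66 of 202 promoter windows that overlapped a WT-only site, or 32.7% (26.6% to 39.4%), the 202 windows belonging to 184 genes. It stood in 38.1% of 4391 windows at shared sites, 27.2% of 2041 windows with TFAP2A in the mutant line only, and 13.2% of 14628 windows without TFAP2A in either line, against 19.9% of all 21262 windows. Median GC content was 61.5% in windows at WT-only sites, 65% at shared sites and 52.3% without TFAP2A, and the part of this difference in base composition was not tested.

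The sequences below are the 250 bases before the transcript start, 5′ to 3′ on the strand of the gene, of the 5 promoters with the strongest WT-only peaks among those that lie outside all annotated protein-coding genes and hold the motif. Capitals mark the motif. They show how the same 9-base pattern sits at different distances from the start.

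Mapkapk3 (chr9:107289878-107290127, minus strand): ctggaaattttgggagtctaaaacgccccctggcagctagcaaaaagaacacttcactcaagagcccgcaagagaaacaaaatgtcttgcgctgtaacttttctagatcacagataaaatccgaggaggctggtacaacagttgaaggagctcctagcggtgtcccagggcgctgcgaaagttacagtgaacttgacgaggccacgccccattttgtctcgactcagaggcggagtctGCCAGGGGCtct

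Pard6b (chr2:168080754-168081003, plus strand): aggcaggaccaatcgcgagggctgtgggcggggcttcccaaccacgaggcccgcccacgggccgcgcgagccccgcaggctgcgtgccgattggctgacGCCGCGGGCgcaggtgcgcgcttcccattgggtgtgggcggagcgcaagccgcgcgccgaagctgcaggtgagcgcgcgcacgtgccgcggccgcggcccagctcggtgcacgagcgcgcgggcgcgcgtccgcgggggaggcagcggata

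Mertk (chr2:128698665-128698914, plus strand): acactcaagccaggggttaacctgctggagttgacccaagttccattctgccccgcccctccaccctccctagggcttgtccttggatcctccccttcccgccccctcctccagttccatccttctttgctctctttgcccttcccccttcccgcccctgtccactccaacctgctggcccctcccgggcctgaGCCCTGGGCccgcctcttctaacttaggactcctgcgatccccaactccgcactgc

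Sinhcaf (chr6:148946471-148946720, minus strand): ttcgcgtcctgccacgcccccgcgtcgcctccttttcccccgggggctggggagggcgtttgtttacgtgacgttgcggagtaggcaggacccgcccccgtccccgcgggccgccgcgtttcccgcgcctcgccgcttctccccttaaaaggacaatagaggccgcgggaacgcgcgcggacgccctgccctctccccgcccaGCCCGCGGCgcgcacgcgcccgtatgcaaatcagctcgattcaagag

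Fbxo42 (chr4:141147672-141147921, plus strand): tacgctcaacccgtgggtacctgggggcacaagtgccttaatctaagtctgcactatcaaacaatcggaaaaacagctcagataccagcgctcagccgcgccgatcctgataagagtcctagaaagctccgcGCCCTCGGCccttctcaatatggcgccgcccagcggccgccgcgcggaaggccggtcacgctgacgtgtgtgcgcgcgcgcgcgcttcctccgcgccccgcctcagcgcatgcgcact

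Positions are counted from the transcript start, negative before it. The motif began at −12 in Mapkapk3, a kinase activated by p38, where the WT TFAP2A fold enrichment was 10.4. It began at −151 in Pard6b, a cell polarity gene (fold enrichment 7.61), and at −56 in Mertk, a receptor tyrosine kinase (7.59). In Sinhcaf, which encodes a subunit of the SIN3 histone deacetylase complex, it began at −47 (7.59), and in Fbxo42, an F-box gene, at −118 (7.03). Fold enrichment is the authors' ratio of summit signal over local background. All 5 windows overlapped an H3K4me3 peak in both lines. Most of the 202 windows at WT-only sites did so too: 86.1% overlapped a WT H3K4me3 peak and 86.6% a mutant one. Over all 21262 windows these shares were 44.6% and 51.7%. The same rule without the motif gave Ctsz, a cathepsin gene (fold enrichment 9.53), and Mtap, a gene of methionine salvage (9.27), whose letters are shown for contrast.

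Ctsz (chr2:174439040-174439289, minus strand): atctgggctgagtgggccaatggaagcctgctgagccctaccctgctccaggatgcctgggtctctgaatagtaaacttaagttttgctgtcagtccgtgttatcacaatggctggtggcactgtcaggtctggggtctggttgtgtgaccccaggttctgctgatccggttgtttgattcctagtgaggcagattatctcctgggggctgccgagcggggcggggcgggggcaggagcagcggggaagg

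Mtap (chr4:89137120-89137369, plus strand): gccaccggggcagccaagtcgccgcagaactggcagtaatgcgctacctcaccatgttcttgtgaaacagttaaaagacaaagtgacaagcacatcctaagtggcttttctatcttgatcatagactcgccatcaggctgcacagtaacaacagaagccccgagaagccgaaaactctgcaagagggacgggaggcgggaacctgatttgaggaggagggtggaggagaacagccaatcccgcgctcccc

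The Ctsz window overlapped H3K4me3 peaks in both lines. The Mtap window overlapped one in the WT line only, and it lay in a 400 kb stretch around Mtap, Cdkn2a and Cdkn2b that held 63 WT peaks of all targets, among them 2 WT-only TFAP2A sites, and no mutant peak of any target.

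The WT-only sites were the weaker part of the WT TFAP2A list. Their median fold enrichment was 5.91 (range 2.01 to 43.4), against 10.2 (1.11 to 141) at shared sites. Their median −log10 q was 5.1 against 13.8, and their median width 325 bp against 498 bp. The share that was WT-only fell with strength, from 42.1% of the 883 peaks with a fold enrichment of 1.11 to 4.73 to 1.10% of the 1186 peaks at 26.1 to 141. Most did not border on a mutant peak: the median distance to the nearest mutant TFAP2A peak was 17953 bp (quartiles 5066 and 51409 bp), 1535 sites (75.3%) lay over 5 kb from one, and 173 (8.49%) lay within 1 kb. Because absence from the mutant list chose these sites, these values describe the choice and carry no test.

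At the edge of the rule, a site near Set (chr2:30062251-30062915, fold enrichment 5.91) and one near Srxn1 (chr2:152105742-152106011, 4.79) each lay 1 bp from a mutant peak and counted as WT-only. A peak near Emc10 (chr7:44496400-44496765, 4.79) overlapped one by 1 bp and one near Nprl3 (chr11:32251177-32251449, 4.79) by 5 bp, and both counted as shared. In all, 6 WT-only sites lay within 10 bp of a mutant peak, and 7 shared sites overlapped one by 10 bp or less.

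**Figure D1:**
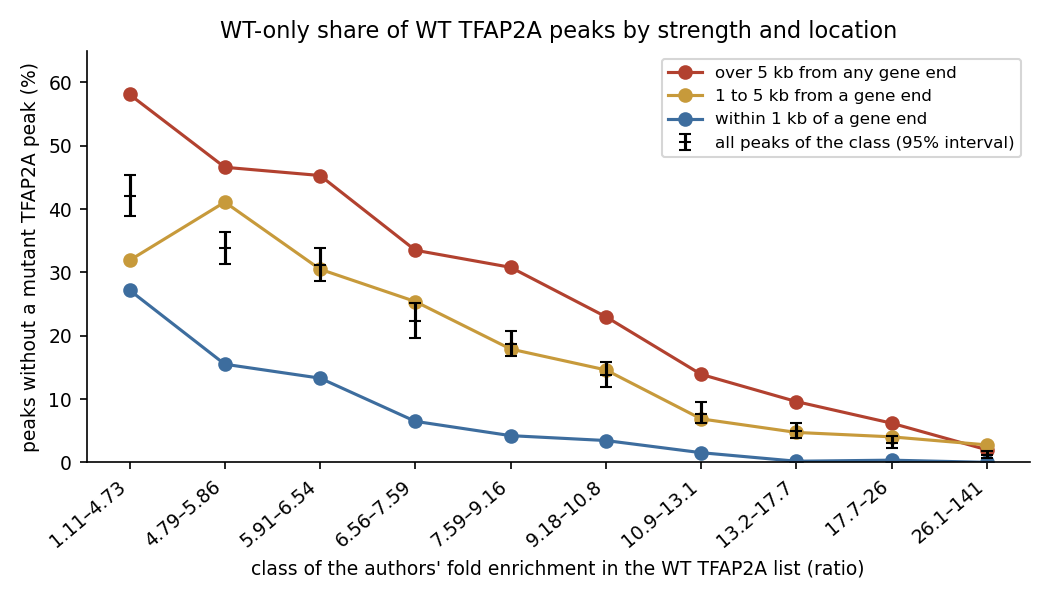
Percent of WT TFAP2A peaks that overlapped no mutant TFAP2A peak, in 10 classes of the authors' fold enrichment (horizontal axis, ratio), split by distance to the nearest end of a protein-coding gene. Black bars are Wilson 95% intervals for all peaks of a class, which fell from 42.1% to 1.10%, with peaks over 5 kb from a gene end above those within 1 kb in every class.

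WT-only sites lay mostly away from the ends of genes. Of the 2038 sites, 308 (15.1%, 13.6% to 16.7%) lay within 1 kb of either end of a protein-coding gene, against 47.4% of shared sites. Distance was taken from the nearest edge of the peak. Another 294 (14.4%) lay 1 to 5 kb from an end, and 1436 (70.5%, 68.4% to 72.4%) lay farther, against 39.4% of shared sites. Of the far sites 798 were inside a gene and 638 outside any gene, at a median of 27912 bp from the nearest end. Sites over 50 kb from any gene end made up 22.9%, against 11.1% of shared sites. Summits inside a gene made up 58.3% of WT-only and 61.5% of shared sites. Counting from RefSeq transcript starts gave 16.1% and 45.4% within 1 kb.

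The location difference held at every strength class. Among peaks with a fold enrichment of 1.11 to 4.73, 58.1% of the far peaks and 27.2% of the gene-end peaks were WT-only. At 13.2 to 17.7 the shares were 9.60% and 0.181%. By chromosome, the WT-only share of WT TFAP2A peaks ran from 12.6% on chromosome 19 to 22.1% on chromosome 18 among the autosomes. A single site lay on the mitochondrial genome, near COX1.

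In the WT line, the share of sites with ARID1A differed by less than counting error between WT-only sites and shared sites of the same strength and location. Its peaks overlapped 1108 WT-only sites, or 54.4% (52.2% to 56.5%), against 56.4% of all WT TFAP2A peaks and 56.9% of shared sites. Since WT-only sites were weaker and more distal, shared sites were also reweighted to the same mix of 10 fold enrichment classes and 3 location classes. The difference for ARID1A was then −1.04 percentage points (−3.73 to 1.66). Split by location alone, without matching strength, ARID1A stood at fewer WT-only than shared sites. The shares were 23.7% and 41.8% within 1 kb of a gene end, 45.9% and 55% at 1 to 5 kb, and 62.7% and 75.6% farther. Over 5 kb from a gene end, 23.9% of WT TFAP2A peaks with ARID1A were WT-only, against 36.7% of those without it. Any other WT target was present at 72.4% of WT-only sites, against 88.3% of all WT TFAP2A peaks.

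KMT2D, the protein that the study is about, was found at fewer WT-only sites. Its peaks overlapped 386 sites (18.9%, 17.3% to 20.7%), against 31.7% of all WT TFAP2A peaks and 34.4% of shared sites. After reweighting the difference was −6.28 points (−8.48 to −4.08). Read the other way, 10.5% of WT TFAP2A peaks with KMT2D were WT-only, against 20.8% of those without it. Over 5 kb from a gene end the same shares were 17.3% and 32.8%, and within 1 kb they were 1.68% and 8.27%. Peaks with KMT2D were also the stronger TFAP2A peaks, with a median fold enrichment of 13.2 against 8.15. At WT-only sites the KMT2D peaks themselves were weak for their list, with a median fold enrichment of 7.90 against 9.30 over all KMT2D peaks.

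Its partner UTX overlapped 29.1% of WT-only sites, against 38.1% of all WT TFAP2A peaks and 34.0% of reweighted shared sites, a difference of −4.85 points (−7.36 to −2.34). ARID1A, UTX and KMT2D stood together at 339 sites (16.6%), against 28.3% of shared sites. SMARCC1 overlapped 28.8% of WT-only sites, against 26.0% of all WT TFAP2A peaks. Its difference from shared sites was 3.34 points before reweighting and −2.48 points after it (−4.97 to 0.00695), so its direction depended on the reweighting.

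Among the WT lists, H3K4me3 and Menin differed most. H3K4me3 overlapped 19.1% of WT-only sites, against 50.7% of all WT TFAP2A peaks, and Menin 14.7% against 39.1%. The reweighted differences were −13.9 points (−16.1 to −11.8) for H3K4me3 and −12.3 points (−14.4 to −10.3) for Menin. Sites with ARID1A and without H3K4me3 made up 49.9% of WT-only and 32.2% of shared sites. At the 308 gene-end sites H3K4me3 was common, at 75.6%, against 91.0% of shared gene-end sites. ARID2 overlapped 29 sites (2.23% of all WT TFAP2A peaks had it), PBRM1 4 (1.34%) and BRD9 1 (0.567%).

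The mutant line had peaks of other targets at fewer WT-only than shared sites. Any of the 11 other mutant lists overlapped 902 WT-only sites, or 44.3% (42.1% to 46.4%), against 85.4% of all WT TFAP2A peaks and 94.1% of shared sites. Reweighted shared sites reached 87.3%, which leaves a difference of −43.0 points (−45.5 to −40.5). At the 308 gene-end sites the share was 81.2%, with mutant H3K4me3 at 76.3%, against 98.9% and 94.8% of shared gene-end sites. Over 5 kb from a gene end any of the 11 lists covered 36.0%, against 89.2% of shared sites. The 11 lists include mutant TFAP2B, at 2.75% of WT-only and 66.5% of shared sites. The choice of the sites largely fixes that contrast, so the differences over any of the 11 lists are fixed in part and carry no test. Mutant ARID1A overlapped 588 sites (28.9%), against 57.8% of all WT TFAP2A peaks, with a reweighted difference of −32.7 points (−35.2 to −30.2). Mutant UTX overlapped 8.05% against 28.0%, with a reweighted difference of −23.1 points. Mutant H3K4me3 overlapped 17.5% against 52.6%, and mutant Menin 10.5% against 41.9%, both 19.0 points below reweighted shared sites. Mutant SMARCC1 overlapped 2.99% against 7.22%, in a list called at 0.405 M fragments (M for mega) as reconstructed, the lowest depth of the series.

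TFAP2B, mapped in the mutant line only, had a peak at few of the WT-only sites. Its peaks overlapped 56 of them (2.75%, 2.12% to 3.55%), against 55.3% of all WT TFAP2A peaks, 66.5% of shared sites and 42.8% of reweighted shared sites. The share was 6.38% when TFAP2B was counted within 1 kb, 1.08% with TFAP2B peaks of −log10 q of at least 5, and 5.77% with WT-only sites redefined on the mutant TFAP2A list thinned to the WT depth. The 56 made up 0.645% of the 8678 TFAP2B peaks, while 75.5% lay on shared sites. Since the rule removed every site with a mutant TFAP2A peak, the choice of the sites largely fixes the low TFAP2B share, which carries no test. The TFAP2B peaks on WT-only sites were weak, with a median fold enrichment of 4.93 against 7.11 in the list. WT ARID1A peaks without TFAP2A in either line held TFAP2B at 0.573%, and such WT H3K4me3 peaks at 2.12%. SOX10 overlapped 50 WT-only sites with the antibody labelled U (2.45%, against 13.3% of all WT TFAP2A peaks) and 10 with that labelled T (0.491%, against 3.33%). WT ARID1A peaks without TFAP2A in either line held SOX10 U at 7.41%, and such WT H3K4me3 peaks at 2.42%.

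**Figure D2:**
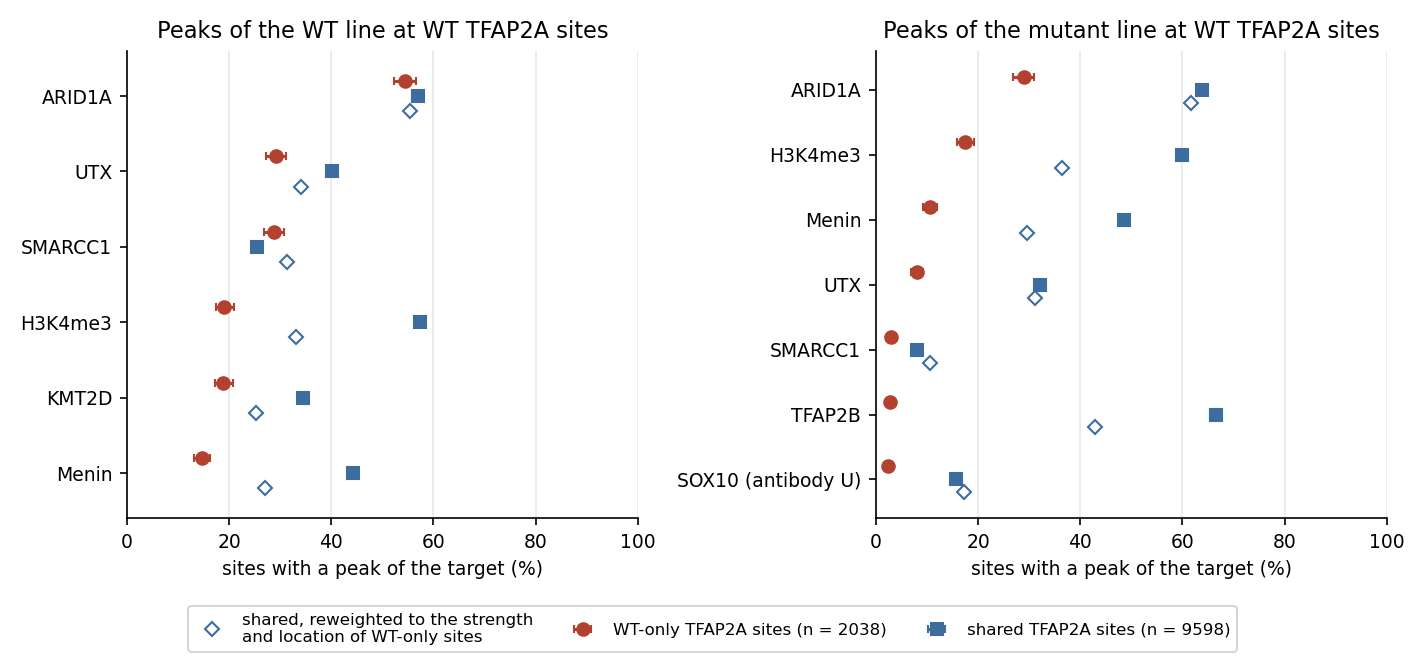
Percent of WT TFAP2A sites with a peak of each other target (horizontal axes), in the WT line on the left and the mutant line on the right. Circles are WT-only sites and filled squares shared sites, with Wilson 95% intervals, and open diamonds are shared sites reweighted to the strength and location of WT-only sites. WT ARID1A stood at 54.4% of WT-only sites and mutant TFAP2B at 2.75%.

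The partner peaks at WT-only sites could be followed from line to line. Of the 1100 WT ARID1A peaks on a WT-only site, 547 overlapped a mutant ARID1A peak, or 49.7% (46.8% to 52.7%), against 70.9% of all WT ARID1A peaks. The share was 90.0% on shared sites, 65.6% at the 15595 peaks without WT TFAP2A, and 61.3% at the 13435 of those that had no TFAP2A peak in either line. Reweighted to the same ARID1A fold enrichment and location, the difference was −38.4 points from shared sites (−41.6 to −35.3) and −17.7 points from peaks without TFAP2A in either line (−20.8 to −14.7).

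UTX peaks were kept at 24.5% on WT-only sites, against 53.3% of the list, 66.0% on shared sites and 38.7% at peaks without TFAP2A in either line. The reweighted difference from the last was −20.5 points (−24.3 to −16.7). Menin peaks were kept at 55.4%, against 77.0% of the list and 69.5% without TFAP2A in either line (reweighted difference −15.3 points, −21.1 to −9.49). H3K4me3 peaks were kept at 85.2%, against 91.7% of the list and 85.3% without TFAP2A in either line. Their plain shares thus differed by less than counting error, and the reweighted difference was −6.14 points (−9.96 to −2.32). SMARCC1 peaks were kept at 11%, against 16.9% of the list and 11.2% without TFAP2A in either line, and the interval of the reweighted difference, −2.57 points (−5.23 to 0.0963), included 0. The mutant SMARCC1 list, of the lowest reconstructed depth in the series, held 2910 peaks against 11507 in the WT list. Its shallow calling limits how many peaks could be kept in any group. Of 29 WT ARID2 peaks on WT-only sites 3 were kept, against 35.6% of that list.

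**Figure D3:**
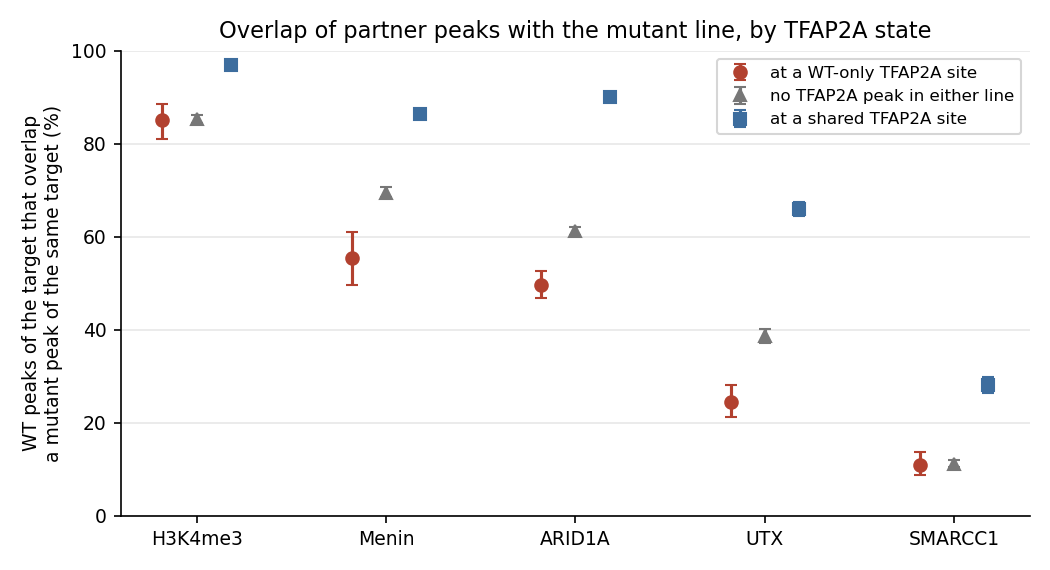
Percent of WT peaks of 5 targets that overlapped a mutant peak of the same target (vertical axis), for peaks on a WT-only TFAP2A site (circles), without a TFAP2A peak in either line (triangles) and on a shared TFAP2A site (squares), with Wilson 95% intervals. WT-only sites lay below both other groups for Menin, ARID1A and UTX, and within counting error of the triangles for H3K4me3 (85.2% and 85.3%) and SMARCC1 (11% and 11.2%). The mutant SMARCC1 list had the lowest reconstructed depth of the series.

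The members were not alike in what remained in the mutant line. At the 339 sites with WT ARID1A, UTX and KMT2D, 65.8% had a mutant ARID1A peak and 33.0% a mutant UTX peak, against 96.1% and 74.3% of the shared sites with the same 3 proteins. At the 390 sites with WT H3K4me3, 84.1% had mutant H3K4me3, against 96.7% of shared sites with WT H3K4me3. The 563 sites with no other WT target (27.6%, against 8.27% of shared sites) had a mutant peak of a target other than TFAP2A in 7.46%. Of the 794 shared sites without another WT target, 60.1% had one. Mutant TFAP2B alone stood at 1.42% of the 563 and 42.6% of the 794, a contrast that the choice of the sites largely fixes. With the TFAP2A lists of both lines left aside, no list covered 521 sites, or 25.6%, against 3.30% of shared sites. No mutant list at all covered 1136 sites (55.7%), and 298 (14.6%) had no mutant peak of any target within 20 kb, which no shared site can lack, since each overlaps a mutant TFAP2A peak. Whether DNA copy number differed between the lines there was not tested. Stretches of at least 100 kb without any mutant peak numbered 248 and held 280 sites (13.7%), and 219 of the stretches held 1 site each. By the rule these stretches, too, can hold no shared site. The stretches with 3 sites lay at Slit3 (573 kb), Adamts2 (225 kb) and Plk1 with Prkcb (372 kb).

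The 344 WT-only sites above a fold enrichment of 9.18, the median of the WT list, carried the same pattern. Of these, 78.2% lay over 5 kb from a gene end, against 39.9% of shared sites of that strength. WT ARID1A stood at 69.5% of them (shared 68.0%) and WT KMT2D at 25% (shared 44.1%). Any of the 11 other mutant lists covered 26.7% (22.3% to 31.7%), against 96.5% of shared sites, and mutant H3K4me3 2.62% against 60.4%. Of the 11 lists, mutant TFAP2B alone covered 2.91% against 81.5%, which the choice of the sites largely fixes. The contrast over any of the 11 lists is thus fixed in part.

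Among sites within 1 kb of a gene end, the strongest lay beside Dbi, which encodes an acyl-CoA binding protein (chr1:120112094-120112502, 778 bp outside the gene). Its TFAP2A fold enrichment was 21.6, the only other peak was WT ARID1A at 7.13, and the nearest mutant TFAP2A peak was 2899 bp away. The next lay beside Lsm4, a subunit of an RNA-binding ring (chr8:70679110-70679750), at 19.6 with WT ARID1A at 4.80. The third was inside Igsf3, an immunoglobulin superfamily gene (chr3:101462122-101462416), at 14.9 with WT ARID1A, SMARCC1 and UTX. The other 9 of the 12 strongest ran from 12.6 to 10.4 and lay at Sync, Cnksr1, Hspbp1, Btbd2, Zfp36l2, Sprr2a1, Dele1, Trpm3 and the neighbours 4930404N11Rik, Fzr1 and Mfsd12. Btbd2, Zfp36l2 and Dele1 had no peak of any other target. Trpm3 took the last place from a tie at 10.4 with Rere, Abcb8, Rpl32, Stard5 and Mapkapk3, of which Abcb8, Rpl32 and Mapkapk3 had a mutant peak.

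A mutant peak of another target overlapped 3 of these 12 sites. At Hspbp1, a co-chaperone gene (chr7:4685031-4685269, fold enrichment 12.6), WT KMT2D stood at 37.3, WT UTX at 50.9 and WT Menin at 18.6, and in the mutant line H3K4me3 stood at 23.5, Menin at 14.9, ARID1A at 5.95 and UTX at 4.83. The mutant UTX peak was at the 17.3 percentile of its list, while the WT peak was at the 97.1 percentile of its own. At Cnksr1, a Ras pathway scaffold gene (chr4:134237779-134238632), ARID1A stood at 14.5 in the WT and 19.9 in the mutant line, and H3K4me3 at 3.68 in the WT line only. At Sync, an intermediate filament gene (chr4:129286897-129288566), H3K4me3 was the only other target, at 7.28 in the WT and 6.29 in the mutant line.

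The strongest site of all, at 43.4, lay 4761 bp inside Pcdh1, a protocadherin gene (chr18:38190675-38191292), with the nearest mutant TFAP2A peak 4615 bp away. The 12 strongest sites over 5 kb from a gene end ran from 42.3 to 23.3. All 12 had WT ARID1A, 7 had WT SMARCC1, 6 WT UTX, 6 WT KMT2D, and none had H3K4me3. Outside genes, the site nearest Gm21933 (chr13:61619399-61620246, 42.3) had ARID1A at 19.6, SMARCC1 at 20.6, UTX at 16.1 and KMT2D at 6.50, and the nearest mutant TFAP2A peak lay 762678 bp away. A site inside Aspa, 7526 bp from the end of Spata22 (chr11:73318028-73319034, 37.8), had UTX at 41.1, ARID1A at 28.1, KMT2D at 22.6, SMARCC1 at 16.1 and Menin at 9.22.

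Of the other distal sites, one was inside Col15a1, a basement membrane collagen gene (chr4:47293496-47294462, 37.2, with ARID1A at 18.5). One lay 19724 bp outside Itga3, the integrin alpha-3 gene (chr11:95096568-95097445, 33.2, with UTX at 30.1, ARID1A at 22.7 and KMT2D at 16.8). One was inside Nid2, a nidogen gene (chr14:19803318-19803991, 31.1, nearest gene end that of Rtraf), and one inside Actn1, an actinin gene (chr12:80208382-80208969, 26.6). The rest were inside Shc2 (33.3), Zmiz1 (32.8, nearest gene end that of Gm45915), Tnk2 (23.3) and Zfp292 (23.3), or 81357 bp from Hs6st1 (23.8). The Tnk2 site, though 10133 bp from the outer ends of the gene, overlapped a RefSeq promoter window of Tnk2, the strongest WT-only peak at any such window outside chromosome 18. A site near Mcf2l tied with Tnk2 and Zfp292 for the last places, and had WT ARID1A and UTX and no mutant peak.

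A mutant peak was found at 1 of the 12 distal sites, inside P2ry6, which encodes a receptor for uridine nucleotides (chr7:100946390-100946926, TFAP2A 33.2). There WT UTX stood at 92.9, in the 99.4 percentile of its list, KMT2D at 59.1 (98.5 percentile) and ARID1A at 32.0. Mutant ARID1A stood at 10.9 and mutant UTX had no peak, and the nearest mutant TFAP2A peak lay 2478 bp away. Some of the other distal sites lay in long stretches without a mutant peak of any target. These were the sites nearest Gm21933 (1348 kb) and Hs6st1 (256 kb), and those inside Col15a1 (116 kb), Tnk2 (144 kb) and Zfp292 (103 kb). The tied site near Mcf2l lay in such a stretch too (238 kb).

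**Figure D4:**
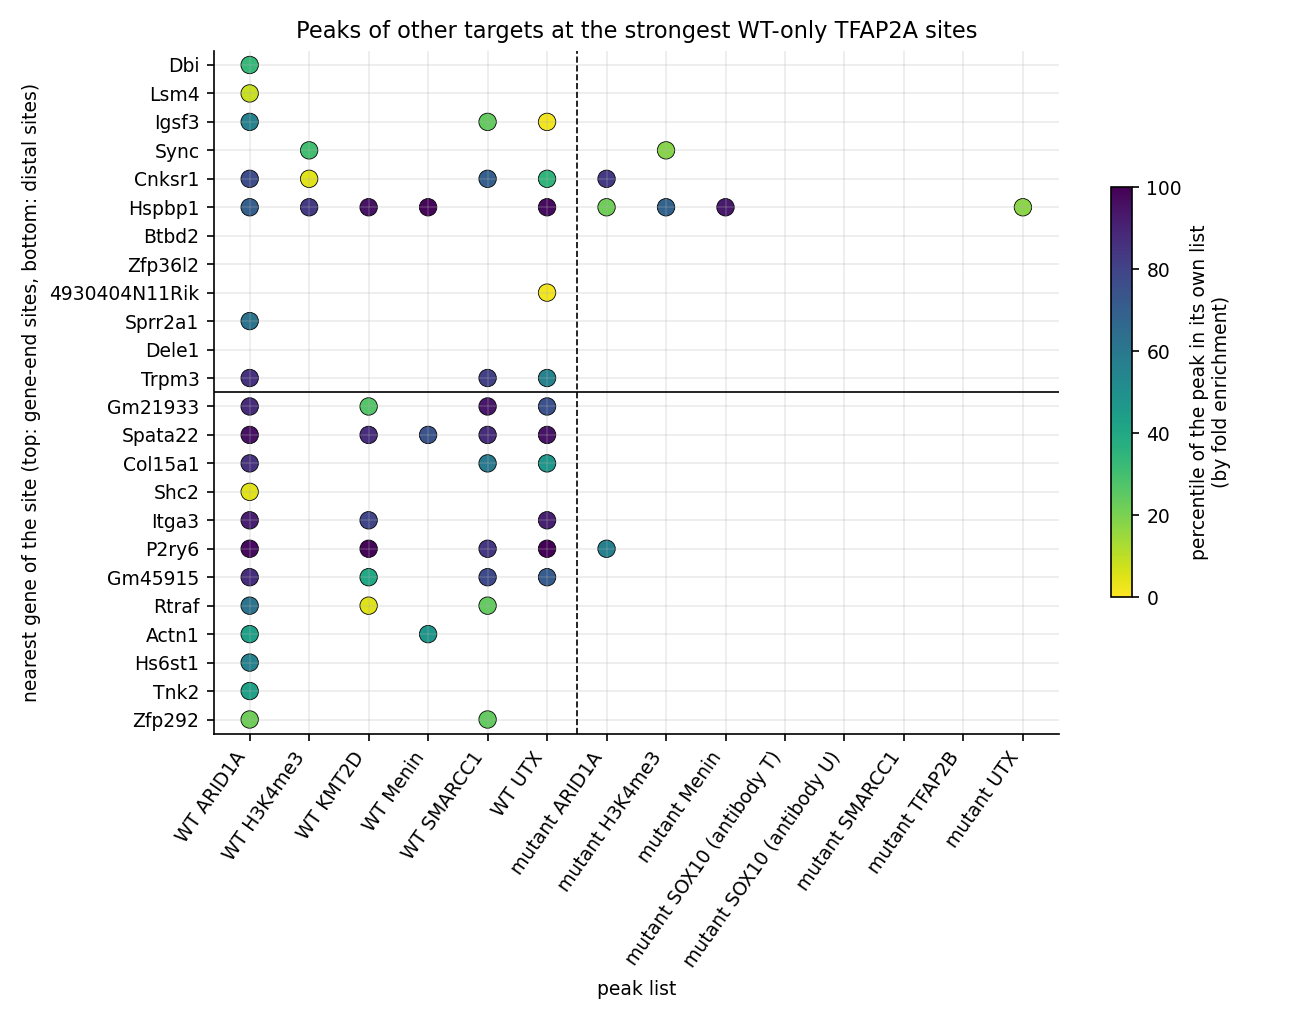
Peaks of other targets at the 12 strongest gene-end sites (above the line) and the 12 strongest distal sites (below it), by peak list (horizontal axis, WT lists left of the dashed line). Colour is the percentile of the peak's fold enrichment in its own list, and an empty cell means no peak. WT ARID1A was present at all 12 distal sites, and 1 of them, nearest P2ry6, had a mutant peak. The sites labelled Gm21933, Col15a1, Hs6st1, Tnk2 and Zfp292 lay in stretches of at least 100 kb without any mutant peak.

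Of the sites that did have a mutant TFAP2B peak, the strongest 5 were nearest Prdm16 (21.6), Lfng (18.8), Arrb1 (17.7), Ets2 (16.5) and Pebp4 (13.2). Those at Prdm16, Lfng and Pebp4 lay inside the gene. The others lay 15732 bp outside Arrb1 and 106347 bp outside Ets2, the latter 1776 bp from a mutant TFAP2A peak. Lfng encodes a Notch glycosyltransferase and Arrb1 a beta-arrestin. At these 5 sites TFAP2B stood between 4.44 (Lfng) and 8.25 (Arrb1), and all 5 had WT KMT2D, between 6.50 and 9.54. Over all 386 WT-only sites with WT KMT2D, 15 had TFAP2B (3.89%, 2.37% to 6.31%). That interval includes the 2.75% of all WT-only sites. At Arrb1 (chr7:99519004-99519415) ARID1A stood at 23.6 in the WT and 25.6 in the mutant line.

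WT-only sites stood near many genes, usually 1 per gene. Within 5 kb of the gene, 1368 of 21896 protein-coding genes (6.25%) had a site, 177 had at least 2 and 45 at least 3. Of the 1368 genes, 987 (72.1%) also had a mutant TFAP2A peak within 5 kb, and 381 (27.9%) did not. Of the 7875 genes with any WT TFAP2A peak within 5 kb, 383 (4.86%) had no mutant TFAP2A peak there, a contrast that the choice of the sites largely fixes. Of 1185 that had WT H3K4me3, 98.4% had mutant H3K4me3, against 98.9% of all genes with WT H3K4me3.

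Counting 20 kb on each side, the most sites stood at P2ry6, with 7, and its neighbour Arhgef17 with 6, of which 5 count for both. There the WT line had 5 UTX and 3 KMT2D peaks at P2ry6 and the mutant line no UTX peak, while mutant H3K4me3 had 2 peaks. Asap1 (fold enrichment 4.24 to 15.4), Gse1 (5.91 to 17.4) and Sh3pxd2a (3.79 to 13.2) also had 6 each, beside 4, 12 and 4 shared sites. Asap1 encodes an Arf regulator of adhesions and Sh3pxd2a an invadopodia scaffold. A count of 4 was reached at Ccdc136 with its neighbour Flnc, and at Ell, Hdac7, Inf2, Ltbp2, Pcdh1, Ptges, Sipa1l2 and Trio.

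Gene lists were read against the 6.25% of all genes. The count takes in the whole gene, so a longer gene has more room for a site, and gene length was not matched. A site within 5 kb was found at 7 of 30 integrin and laminin genes, or 23.3% (11.8% to 40.9%), namely Itga3, Itgb3, Itgb5, Itgb7, Lama2, Lama5 and Lamc3, with fold enrichments from 4.79 to 7.03. Any WT TFAP2A peak within 5 kb was found at 19 of the 30, against 7875 of all 21896 genes. WT ARID1A was present at 6 of these 7 sites, all but Itga3. Of the 7 genes, Itgb7 and Lama2 had no mutant TFAP2A peak within 5 kb, while Itgb5 had 10. The Lama2 site lay in a 178 kb stretch without a mutant peak of any target. With no mutant TFAP2A peak allowed within 5 kb of the site, the count fell from 7 to 3. Among 33 epidermal genes 5 had a site (15.2%, 6.65% to 30.9%; 3 with that stricter rule): Cdh1, Krt10, Sprr2a1, Sprr2a3 and Tgm1. Tgm1, the transglutaminase of the cornified envelope (chr14:55715017-55715467, 6.47), had ARID1A in both lines and WT KMT2D. The sites at Sprr2a1 (10.9) and Sprr2a3 (10.2), genes of the same envelope, lay in a 610 kb stretch without mutant peaks. These genes are near-identical copies, so which copy was bound is uncertain.

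Other lists were closer to TFAP2A. Of 14 genes tied to TFAP2A in melanoma and epithelial cells 2 had a site, Cdh1, the E-cadherin gene (7.03), and F2r, the thrombin receptor gene (11.5). Both also had 2 mutant TFAP2A peaks within 5 kb. Of 15 ERBB receptor and ligand genes only Nrg1 had one (7.03, 411523 bp from the gene end). Among 22 pigment and neural crest genes and 10 TFAP2 family genes 0 had a site, though 6 and 3 of them had WT TFAP2A peaks. Tead1 was 1 of 20 mesenchymal state genes, Atf3 1 of 17 AP-1 genes, and Rpl32 and Rpl7 2 of 20 ribosomal protein genes.

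Marker genes of other cell types were included because cultures can hold them. Of 10 fibroblast markers 2 had a site, Pdgfrb (4.79) and Thy1 (7.03), of 8 blood markers 1, Cd68 (5.12), and of 6 endothelial markers 1, Tek (4.79). These peaks had at most the fold enrichment of the upper quartile of WT-only sites, 8.14, and the part of other cells in them was not tested.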

How the data were processed

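CUT&RUN peak lists of 22 libraries were used, 10 WT and 12 mutant. Per the submitters' processing notes, reads went through FastQC, MultiQC, Bowtie2 and MACS2 on mm10. Versions, thresholds and the caller's control are not given in the sources used here. For each deposited peak the list gives a score, the authors' fold enrichment (a ratio), the authors' −log10 p and −log10 q, and a summit position. Peaks overlapped from 1 bp. Gene ends came from 21896 protein-coding genes and promoters from 21262 windows of RefSeq (GRCm38.p6, the assembly of mm10), and no genome was used, so sequence under other peaks was not read. Shares carry Wilson 95% intervals and plain differences Newcombe intervals. Reweighting gave shared sites the WT-only mix of 10 fold enrichment and 3 location classes.

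The depth at which lists were called was reconstructed from fold enrichment and −log10 p, and was 1.19 M fragments for WT and 2.16 M for mutant TFAP2A (M for mega). Named were the 12 strongest sites at and away from gene ends, the 5 strongest with TFAP2B and with KMT2D, genes with the most sites, and genes of 12 lists (205 symbols, which all matched). The other sites, genes and promoters named were chosen after their values were seen. Promoters on chromosome 18 were not printed. The members and the lists were chosen with earlier results of these data known. The overlap, reweighting and interval steps were tested on simulated data. Scripts ran on Python 3.11.15 with SciPy 1.17.1, pandas 2.3.3 and NumPy 2.4.6, and figures were drawn with Matplotlib 3.10.9.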

Additional observations from a re-analysis of the deposited data

How the results depend on the processing

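No paired analysis was possible because each line and target had 1 library. Of 268 alternative values, 130 moved beyond their counting interval or 1.5 times and 1 changed sign, the WT SMARCC1 difference from shared sites, which was −2.48 points after reweighting. The number of WT-only sites was 1352 with WT peaks of −log10 q of at least 5, and 3611 with as many mutant as WT peaks. It was 2652 with the mutant list, called at greater depth, thinned to the WT depth. The cause of these moves was not tested. With WT peaks of −log10 q of at least 5, 11.8% of sites lay at gene ends and 73.3% over 5 kb away, and WT ARID1A stood at 58.6%, WT H3K4me3 at 15.6%, WT KMT2D at 21.3% and any mutant list at 39.3%. With no mutant TFAP2A peak within 5 kb, 13.0% lay at gene ends and 76.0% over 5 kb away, with WT H3K4me3 at 15.6% and any mutant list at 41.8%. With the thinned mutant list, 19.6% lay at gene ends, with WT H3K4me3 at 25.2%, mutant ARID1A at 31.2%, mutant TFAP2B at 5.77% and any mutant list at 51.8%. A gene end of 2.5 kb took in 21.8%. At the TFAP2A summit, WT ARID1A stood at 48.5%, WT H3K4me3 at 16.9%, WT KMT2D at 15.5%, mutant ARID1A at 23.0% and any mutant list at 37.7%. Within 1 kb these were 57.9%, 22.3%, 21.6%, 33.8% and 49.9%, and mutant TFAP2B 6.38%. With other targets at −log10 q of at least 5 they were 48.8%, 16.4%, 15.4%, 23.9% and 39.3%, and mutant TFAP2B 1.08%. Without sites lacking any mutant peak within 20 kb, WT H3K4me3 was 22.1%, mutant ARID1A 33.8% and any mutant list 51.8%. A site within 20 kb was found at 2175 genes. After reweighting, differences from shared sites were −13.9 points for WT H3K4me3, −6.28 for WT KMT2D, −32.7 for mutant ARID1A and −40.1 for mutant TFAP2B. Transcript starts and the whole comparison of kept partner peaks were added after seeing the data.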
